A study of Arabidopsis thaliana with 8 samples.

Results

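A group of 61 probe sets, of 22746 considered on the array, stood less than 0.3 above the warm control, on a log2 scale, after a day of cold and at least 0.8 above it after a week. They are called here the rise first seen at 7 d, although 11 of them lay more than 0.3 above control at 1 h. Each probe set, a group of short probes read as 1 value, stands for a gene where the annotation names one. Members were chosen by measured values alone, on the scale log2(signal + 6), as differences between group means. A probe set was kept when its signal was at least 40 on both 7 d arrays and when it lay less than 0.8 above control at 1 h and less than 0.3 above it at 24 h. It also had to lie at least 0.8 above control at 7 d, with both 7 d arrays above both control arrays. Because this rule used all 4 times, every level and difference of the members given below is a description of how they were selected.

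Total RNA came from shoots of Arabidopsis thaliana grown in soil, the accession being Col-0, a standard laboratory strain. It was hybridised to ATH1 arrays, 2 for each of 4 times. Control plants were harvested warm at 0 h, after growth at 22 °C in continuous light of 100 µmol m-2 s-1. Cold-treated plants had been moved to 4 °C in continuous light of about 25 µmol m-2 s-1 and were harvested after 1 h, 24 h or 7 d. All plants had been stratified in the cold for 4 d, and the labels give every plant an age of 18 d alongside 10 d of warm growth. The age at harvest is therefore unclear. Cold, dimmer light and time since the control harvest coincide at 7 d and cannot be told apart in these groups. Nothing in the labels says whether the 2 arrays of a time came from separately grown plants, so errors here measure the spread between arrays, which may be technical. In such whole-shoot samples a higher signal from more cells of a type cannot be told apart from more RNA per cell.

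Plants moved to a low, non-freezing temperature acclimate over days. Within hours calcium signals and the CBF transcription factors switch on a first wave of cold-regulated genes. Over the following days leaves adjust membranes, sugars, photosynthesis and growth to the low temperature. Transcripts that are still at the warm level after a day and higher after a week belong to this slower phase by their timing only.

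Of the 563 probe sets that met the criteria at 7 d, 501 already lay at least 0.3 above control at 24 h, and 390 of these lay at least 0.8 above it. One more was left out for its level at 1 h, and 61 remained. Their median log2 difference from control was 0.08 at 1 h, 0.04 at 24 h and 0.92 at 7 d, where the median of all tested probe sets was -0.04, -0.10 and -0.00. At 7 d the members ranged from 0.80 to 2.77, with 40 below 1, which is a doubling on this scale, and 4 at or above 1.5. The 362 probe sets that were at least 0.8 above control at both 24 h and 7 d had a median of 1.15 at 7 d.

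**Figure D1:**
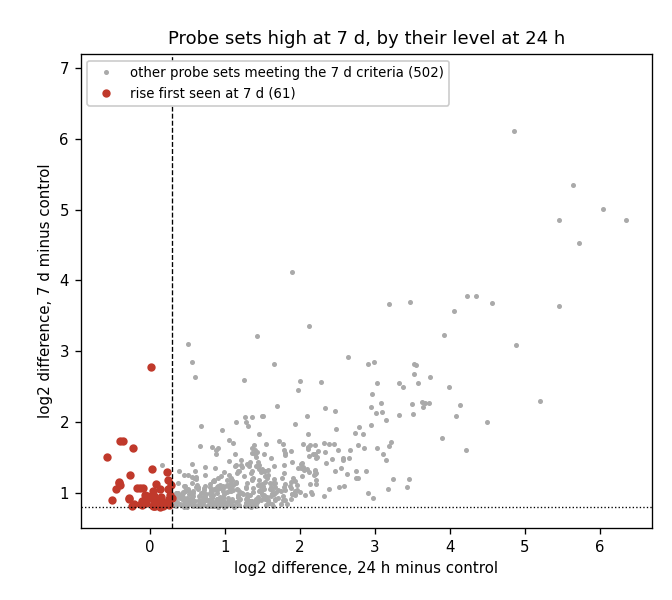
Log2 difference from control at 24 h (x axis) and at 7 d (y axis) for the 563 probe sets that met the 7 d criteria, each point 1 probe set. The 61 members (red) lie left of the dashed line at 0.3 and above the dotted line at 0.8, and the other 502 (grey) lie to its right except for 1 left out for its level at 1 h.

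Mean control signals of the members ran from 16.5 to 794 with a median of 61.4, and mean 7 d signals from 43.8 to 1418 with a median of 130.0. In the control, 41 of the 61 were at or above the array's median on both arrays, a share not counted over all probe sets. At 7 d all 61 were, since the signal floor of 40 lay above the medians of those arrays, 37.5 and 35.9. Neither array at 7 d was the higher one throughout: 32 members were higher on replicate 1 and 29 on replicate 2. The 7 d arrays lay within 1.5-fold of each other for 55 members, with a median gap of 1.17-fold and a largest gap of 3.78-fold. The rule sets conditions on both 7 d arrays, which favours such closeness. The 24 h arrays lay over 1.5-fold apart for 14 members and the control arrays for 13. Shares over all tested probe sets were not counted for these gaps. In 35 members at least 1 of the 24 h arrays already read above both control arrays, and in 6 both did. Of all tested probe sets, 41.2% had at least 1 such array and 26.4% both; the rule limits the level of members at 24 h.

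In a limma fit over all 14756 tested probe sets, 54 of the 61 members were higher at 7 d than in the control at an adjusted p under 0.05. Over all tested probe sets the share was 7.33%. The rule used this contrast, so the count says only how many members cleared the spread between arrays. Without 1 array the count was 21 (control replicate 1), 28 (control replicate 2), 27 (7 d replicate 1) or 26 (7 d replicate 2), and with no filter on low signals it was 34. Against 24 h, 40 members were higher, where 4.32% of all tested probe sets were. That count was 13 without either 24 h array, 25 without 7 d replicate 1, 15 without 7 d replicate 2 and 24 with no filter. All 40 were also higher than control.

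At 24 h none of the 61 passed against control in limma in either direction, while 11.1% of tested probe sets were higher and 15.1% lower. At an unadjusted p under 0.05, 4 members were lower and 0 higher, beside 23.4% and 15.9% of tested probe sets. Without 24 h replicate 2 or without control replicate 2, 1 member was lower at the adjusted threshold. At 1 h none passed, against 0.908% of tested probe sets in either direction, and 5 had an unadjusted p under 0.05, beside 6.7% of tested probe sets. Both 7 d arrays read above the other 6 arrays in 59 members, and they did so in 10.6% of all tested probe sets. The remaining 2, 258497_at and 266835_at, are unnamed probe sets whose 7 d arrays overlapped the 1 h arrays. Against the 24 h arrays alone, 60 members did not overlap, compared with 32.8% of tested probe sets.

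**Figure D2:**
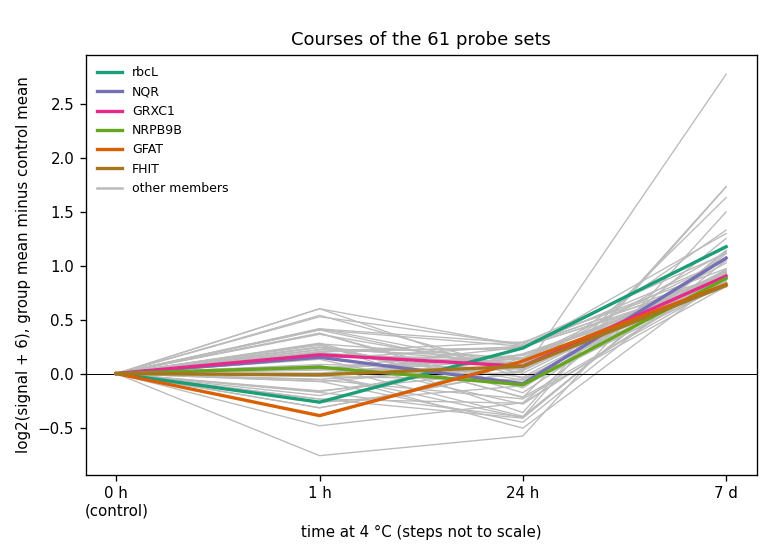
Log2 difference of each time's mean from the control mean (y axis) at 0 h, 1 h, 24 h and 7 d at 4 °C (x axis, steps not to scale), with 1 line for each of the 61 members and 6 named genes in colour. All lines stay below 0.3 at 24 h and end between 0.80 and 2.77 at 7 d, as the rule requires.

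The platform annotation named a single gene for 34 members and none for 27. Of the 34, 6 carried a gene symbol and 28 a locus tag alone. Those 6 cover carbon fixation, amino sugar synthesis, redox chemistry, transcription and nucleotide metabolism.

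The gene rbcL, encoded in the plastid genome, codes for the large subunit of Rubisco, the enzyme that fixes carbon dioxide. Its signal was 423 and 675 on the control arrays, 473 and 415 at 1 h, 922 and 430 at 24 h, and 1136 and 1296 at 7 d. Both 7 d arrays read above all others, but the 24 h arrays disagreed, and 24 h replicate 1 lay above both control arrays. The difference at 7 d was 2.26-fold (log2 1.18 ± 0.33 SE, n = 2 arrays per time). Folds over control here and below are of signal + 6, while gaps between the arrays of a time are ratios of the signals themselves. It did not pass against 24 h (log2 0.94 ± 0.33). Centring each array on its median moved rbcL out of the group by its level at 24 h.

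The other plastid-encoded transcripts give a setting for rbcL, which was looked at after rbcL was found among the members. All 69 such probe sets were tested: 15 were lower at 7 d, 53 did not pass and 1 was higher. Over all tested probe sets 7.33% were higher at 7 d, and the share lower at 7 d was not counted. The median difference of the 69 was -0.38 beside -0.00 for all tested probe sets. The single higher one was rbcL (adjusted p = 0.0433 in limma), and it passed in 2 of the 8 fits that each left out 1 array. The next in order was rpoB, for a subunit of the plastid RNA polymerase, at 0.54 ± 0.17 (adjusted p = 0.0587 in limma), with rpl20, for a plastid ribosomal protein, at 0.51 ± 0.27 (adjusted p = 0.23). Whether rbcL differed from these was not tested. The lowest was psbN at -1.31 ± 0.25. Among others that were lower was psbA, for the D1 protein of photosystem II, at -0.94 ± 0.19. Among nuclear genes, RCA, for the activase of Rubisco, read 5935 and 5056 in the control and 3482 and 3404 at 7 d, and it was lower.

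**Figure D3:**
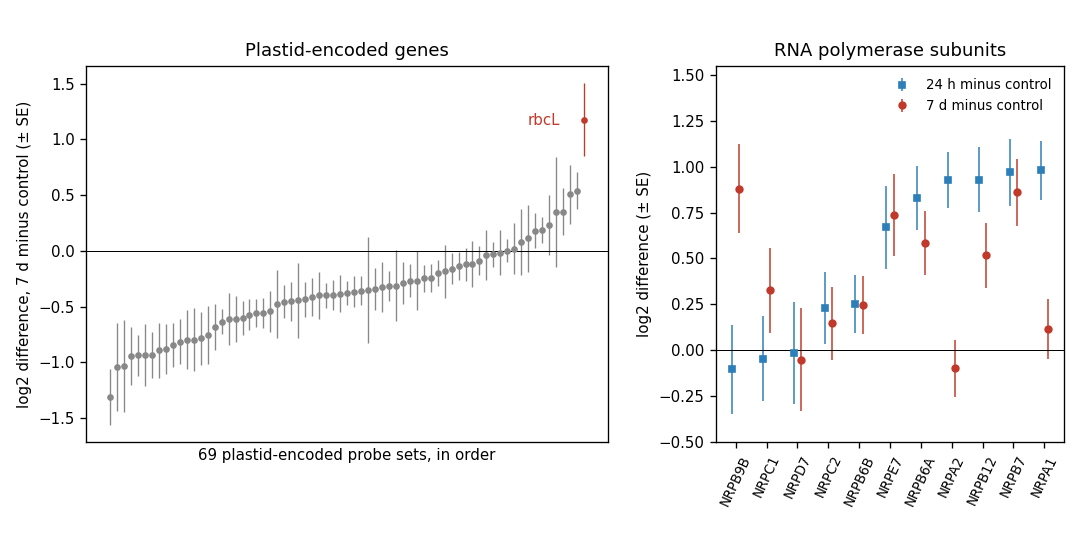
Left, log2 difference of 7 d from control (y axis, ± SE) for 69 plastid-encoded probe sets in order of size, with rbcL in red at 1.18 and the next at 0.54. Right, log2 differences from control at 24 h (blue squares) and 7 d (red circles), ± SE, for 11 nuclear RNA polymerase subunits in order of their 24 h value, with NRPB9B first at -0.10 and 0.88.

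NRPB9B encodes a small subunit of RNA polymerase II, and its RefSeq synonyms NRPD9B and NRPE9B also place it in the plant polymerases IV and V. It read 62.1 and 73.9 in the control, 57.5 and 87.0 at 1 h, 49.7 and 78.6 at 24 h, and 133 and 127 at 7 d. The 7 d arrays were close together and above the other 6, which spanned a wider range. It stood 1.84-fold above control at 7 d (log2 0.88 ± 0.24) and at -0.10 ± 0.24 at 24 h.

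Several other subunits of the nuclear RNA polymerases were higher at 24 h. Of 11 tested probe sets for such subunits, a list also drawn up afterwards, 5 were higher at 24 h and 2 at 7 d, with a median of 0.33 at 7 d. Over all tested probe sets 11.1% were higher at 24 h and 7.33% at 7 d. NRPB7 was higher at both times (0.97 ± 0.18 at 24 h and 0.86 ± 0.18 at 7 d). NRPB6A, NRPB12, NRPA1 and NRPA2 passed at 24 h, with differences from 0.83 to 0.98, and not at 7 d. The largest polymerase I subunits, NRPA1 and NRPA2, were back at 0.12 ± 0.16 and -0.10 ± 0.15 by 7 d. NRPB9B was the remaining one that passed at 7 d (adjusted p = 0.0415 in limma). Others came near without passing at 7 d. They were NRPB6A at 0.59 ± 0.17 (adjusted p = 0.0538), NRPE7 at 0.74 ± 0.22 (0.0576) and NRPB12 at 0.52 ± 0.18 (0.0842). Whether the course of NRPB9B differed from those of the other subunits was not tested, and all these comparisons share the control arrays.

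Redox genes were represented by GRXC1 and NQR. GRXC1, a glutaredoxin, reduces protein disulfides with glutathione. Its signal was 97.3 and 122 in the control, 115 and 133 at 1 h, 106 and 123 at 24 h, and 189 and 230 at 7 d. The first 6 arrays overlapped throughout and both 7 d arrays lay above them, 1.87-fold over control (log2 0.90 ± 0.17). Of the 3 other glutaredoxin probe sets tested, none passed at 7 d in limma: GRXC2 stood at 0.21 ± 0.16, GRX480 at -0.03 ± 0.44 and ROXY1 at -0.08 ± 0.49.

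NQR is named for quinone reductase. It read 195 and 201 in the control, 225 and 216 at 1 h, 174 and 197 at 24 h, and 436 and 409 at 7 d. Replicates agreed closely at each time and the 7 d arrays stood apart from the rest. The difference at 7 d was 2.1-fold (log2 1.07 ± 0.13), and NQR stayed a member without each array in turn.

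GFAT encodes the glutamine:fructose-6-phosphate amidotransferase, which begins the pathway to UDP-N-acetylglucosamine, the sugar donor for protein glycosylation. Signals were 43.8 and 37.6 in the control, 24.5 and 35.5 at 1 h, 43.2 and 45.9 at 24 h, and 71.3 and 82.4 at 7 d. Both 1 h arrays were below both control arrays, the 24 h arrays were about level with the control, and the 7 d arrays were the highest. GFAT stood 1.77-fold above control at 7 d (log2 0.83 ± 0.20) and at -0.39 ± 0.20 at 1 h, which did not pass. Its difference of 7 d from 24 h (log2 0.71 ± 0.20) did not pass. FHIT, a hydrolase of dinucleoside polyphosphates, read 130 and 141 in the control, 128 and 141 at 1 h, 149 and 135 at 24 h, and 257 and 229 at 7 d. Its first 6 arrays were nearly flat, and the difference at 7 d was 1.76-fold (log2 0.82 ± 0.14), close to the threshold of the rule.

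**Figure D4:**
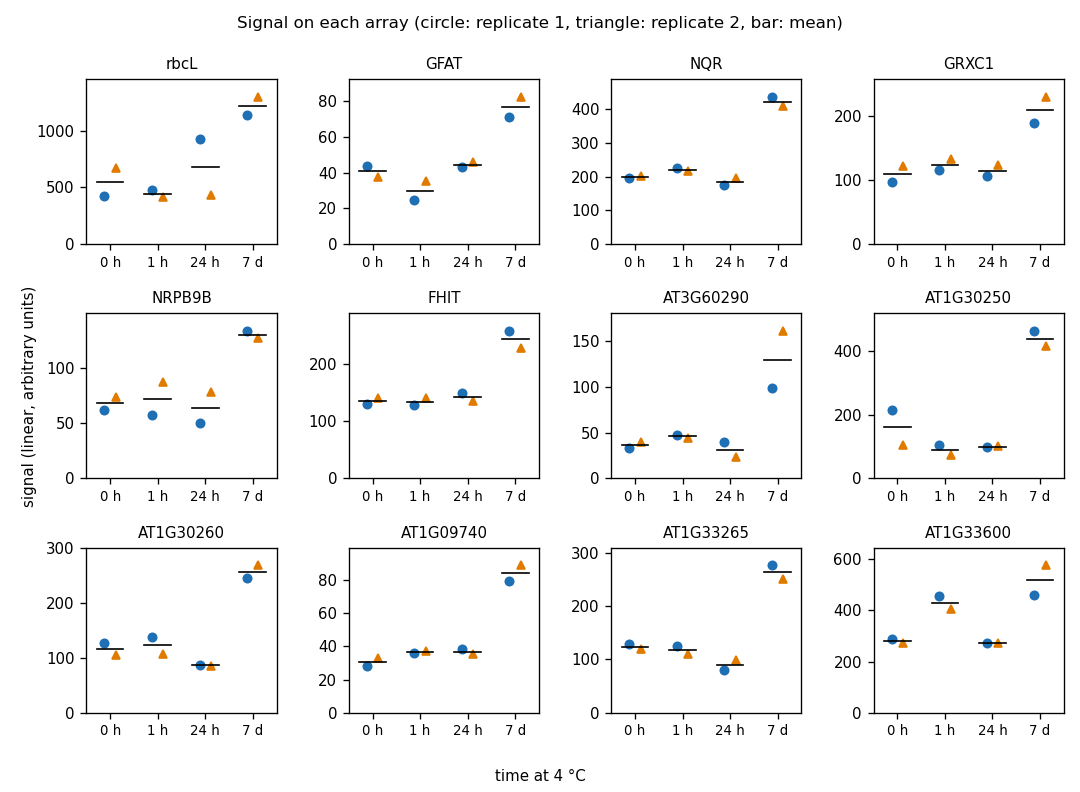
Signal on each of the 8 arrays (y axis, linear arbitrary units from 0) by time at 4 °C (x axis) for 12 members, with circles for replicate 1, triangles for replicate 2 and bars for the mean of 2. In each of the 12 both 7 d arrays are the highest of the 8, as they are in 59 of the 61 members.

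Among members known by a locus tag alone, AT3G60290 had the largest difference at 7 d. It read 33.4 and 40.1 in the control, 47.6 and 44.1 at 1 h, 40.2 and 22.9 at 24 h, and 98.5 and 161 at 7 d, or 3.10-fold over control (log2 1.63 ± 0.28). The 7 d arrays differed by 1.63-fold and still stood clear of the other times. AT1G09740 read 28.1 and 33.2 in the control, 36.2 and 36.9 at 1 h, 38.1 and 35.5 at 24 h, and 79.4 and 88.7 at 7 d. All 4 arrays of the first day in the cold were slightly above the control. AT1G09740 left the group under quantile normalization or median centring, and its 7 d difference of 1.3 ± 0.17 passed without each array in turn.

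The neighbouring genes AT1G30250 and AT1G30260 were the single pair of members that lie next to each other among protein-coding genes in the RefSeq annotation of TAIR10.1. AT1G30250 read 214 and 106 in the control, 104 and 72.3 at 1 h, 97.5 and 101 at 24 h, and 461 and 415 at 7 d. Control replicate 1 stood apart from replicate 2, all arrays of the first day in the cold lay below the lower control array, and the 7 d arrays were the highest. AT1G30260 read 127 and 106 in the control, 138 and 108 at 1 h, 86.8 and 86.1 at 24 h, and 245 and 269 at 7 d. Both genes lay below control at 24 h (-0.58 ± 0.29 and -0.40 ± 0.16, neither passing) and were highest at 7 d, with differences from 24 h of 2.08 ± 0.29 and 1.51 ± 0.16 on the log2 scale. Each passed against 24 h and stayed a member without each array in turn.

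Several other members also lay below control at 24 h, although none of the 61 passed there. In all, 8 members lay more than 0.3 below control at 24 h, a share not counted over all tested probe sets. In 11 of the 61 both 24 h arrays were below both control arrays. That is a smaller share than the 39.4% of all tested probe sets, so low values at 24 h were not particular to the members. Besides the neighbouring pair, the named ones beyond 0.3 were AT2G04650 at -0.51 ± 0.22 and AT1G33265 at -0.45 ± 0.15. AT1G33265 read 129 and 119 in the control, 125 and 110 at 1 h, 80.8 and 98.1 at 24 h, and 276 and 250 at 7 d. Its order of times was the same on both arrays of each time, with 24 h lowest and 7 d highest. AT2G04650 was likewise lowest at 24 h and highest at 7 d, with 20.3 and 19.1 at 24 h and 55.4 and 70.0 at 7 d.

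Other members lay above control at 1 h. There were 11 members more than 0.3 above control at 1 h, 6 more than 0.3 below it and 44 in between. The matching shares over all tested probe sets were not counted, so these numbers only describe the members. The highest named ones were AT1G71080 and AT1G33600, both at 0.60, followed by AT2G27330 at 0.42 and by AT5G63700 and AT1G34350 at 0.40. AT1G33600 read 289 and 273 in the control, 454 and 406 at 1 h, 273 and 271 at 24 h, and 462 and 575 at 7 d. Its control and 24 h arrays were almost level, and both the 1 h and the 7 d arrays stood above them. Its neighbour AT1G33590 missed the rule at 0.77 and read 476 and 510 in the control, 786 and 823 at 1 h, 331 and 373 at 24 h, and 710 and 1011 at 7 d. Both genes were high at 1 h and 7 d and at or below control at 24 h. AT1G71080 was less even, with 60.6 and 27.8 in the control, and was the single named member that did not pass at 7 d.

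The remaining named members lay between 0.80 and 1.07 at 7 d and within 0.42 of control at 1 h. AT5G48370 stood at 1.07 ± 0.23, AT3G17780 at 1.05 ± 0.14 and AT5G14680 at 0.97 ± 0.15. The pair of AT3G17780 at 7 d was close, 309 and 315, after 138 and 159 in the control and 180 and 173 at 24 h. A second probe set was named for a single member gene, AT1G18390. The member probe set read 46.8 and 50.3 in the control and 78.9 and 105 at 7 d, a log2 difference of 0.83, while the other read 24.6 and 22.6 and then 22.1 and 33.0, a difference of 0.16. That other probe set was weak, below its array's median on every array (37.7 on both control arrays, 37.5 and 35.9 at 7 d). The 2 probe sets therefore disagreed on this gene, and whether the weaker one detects its transcript was not tested.

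The 27 unnamed members had a median difference of 0.94 at 7 d, beside 0.91 for the named ones, and 21 of them passed against control beside 33 of the 34. The largest difference in the whole group belonged to the unnamed 248197_at, at 42.7 and 53.5 in the control, 41.0 and 33.8 at 1 h, 70.1 and 33.0 at 24 h, and 398 and 329 at 7 d. It stood 6.83-fold over control (log2 2.77 ± 0.29), where the largest fold of a named member was the 3.10 of AT3G60290, with both 7 d arrays far above the other 6. By contrast 251673_at, the third in order, read 271 and 1023 at 7 d after 158 and 152 in the control, and did not pass.

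Values crowd the threshold at 7 d. Just inside it were AT5G19570 at 0.81, with 106 and 97.7 at 7 d, and AT3G05340 at 0.80, with 97.3 and 83.2. Just outside were AT4G38540 and AT4G39230, both slightly under the threshold of 0.8, and SECA2, for a plastid protein translocase, at 0.78. AT4G38540 read 80.8 and 155 at 7 d after 61.2 and 63.0 in the control. The 24 h limit behaves alike: the member nearest to it lay at 0.29, and AT1G29310, AT5G06590 and AT1G16040 fell outside at 0.34. Without each array in turn, 16 of the 61 members, 8 of them named, stayed in the group. The named ones that stayed were AT3G60290, AT1G30250, AT1G30260, NQR, AT5G48370, AT1G33265, AT5G14680 and AT2G27330. Without 7 d replicate 1 the rule gave 198 probe sets, 47 of them among the 61.

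None of the 34 named members was on any of 20 lists of genes, which covered pathways from defence to sugar transport and markers of tissues. Of 319 entries on those lists 47 were named on the array by a single-gene probe set and 43 were tested. Of these 10 were higher at 7 d, 11 were lower and 22 did not pass. Over all tested probe sets 7.33% were higher at 7 d, and the share lower was not counted. Of 7 COR genes and CBF targets, the classical cold-induced genes, 5 were higher at 7 d, with a median of 2.82. All 5 were already higher at 24 h, COR15A by 4.05 and LTI30 by 6.04. Of 5 salicylic acid and systemic resistance genes 2 were higher at 7 d, AT4G12490 at 3.21 ± 0.36 and AT4G12500 at 3.35 ± 0.26. Both were already higher at 24 h, by 1.43 ± 0.36 and 2.12 ± 0.26. SAG101 (0.27 ± 0.37), GRX480 and AT5G03350 (0.56 ± 0.32) did not pass. Sugar transport and starch genes had 2 higher and 1 lower of 6 at 7 d, flavonoid genes 2 lower of 3 and light-harvesting genes 2 lower of 3. The 2 higher sugar genes, SWEET13 and TMT2, were also higher at 24 h already, by 1.65 and 1.45.

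Of 8 planned leaf markers 3 were named by a single-gene probe set, and of 6 root markers 1 was. The leaf markers RCA, PSAN and PSAE-1 read from 2279 to 5935 over the 8 arrays, and all 3 were lower at 7 d. The root marker PYK10 read 152 and 130 in the control and 15.6 and 18.9 at 7 d. None of the 5 flower and 4 seed markers was named in this way, so they were not analysed here. For GAPDH, a check of RNA integrity on the array, the 3' to 5' signal ratio was 1.24 and 1.26 in the control and 1.36 and 1.17 at 7 d. For ubiquitin it was 2.88 and 2.22 in the control and 2.13 and 2.14 at 7 d, so its 7 d arrays lay below both control arrays. The part of these shifts in the members' values was not tested.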

How the data were processed

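The deposited values are signal intensities on a linear scale, made with MAS5 per the submitters' processing notes; its version and the detection calls are not given in the sources used here. In the deposited values each array's mean, after trimming 2% of probe sets at each end, was 100, and that scaling was kept. Control probe sets (64) were left out. Genes were named through the platform annotation and RefSeq's table for TAIR10.1, used for names and gene order alone.

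Differences are on log2(signal + 6), which understates changes of weak signals. A probe set was tested when 2 or more of its arrays reached the 40th percentile of that array (14756 did). All 8 arrays entered 1 fit with a mean per time (R 4.3.3 with limma 3.58.1, functions lmFit and eBayes with trended variance, 4 residual degrees of freedom). SEs and Benjamini-Hochberg adjusted p-values (two-sided, threshold 0.05) come from this fit. It was also run on simulated data in which arrays varied independently. Here arrays of one replicate number deviated together, so that run cannot show how the p-values behave on these arrays. Precision is limited by having 2 arrays per time. The genes described were drawn from these sets of named members: the 25 largest differences and 5 highest signals at 7 d, the 5 highest at 1 h, the 5 lowest at 24 h, the edges of the threshold, neighbouring members and genes with a second probe set. All 6 with a symbol were described, while several known by a locus tag alone, among them AT4G13180 and AT2G15280, were not described singly. Unnamed members were singled out after their values were seen. Members, lists and rules were chosen with earlier results of these data known. Promoter sequences were not used here.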

Additional observations from a re-analysis of the deposited data

How the results depend on the processing

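The rule gave 37 members with log2(signal + 16), of which 36 were among the 61, 21 with a 7 d threshold of 1 and 24 with a 24 h threshold of 0. Without 1 array it gave from 58 to 198 members: 198 without 7 d replicate 1 and 112 without 7 d replicate 2, of which 47 and 48 were among the 61. Log2(signal + 1) gave 75, quantile normalization 54, median centring 55, and signal floors of 20 and 80 gave 84 and 43. Quantile normalization kept 51 of the 61 and median centring 48; centring adds 0.15 to every difference at 24 h and 0.03 at 7 d. Members higher at 7 d than control numbered 34 with no filter and from 21 to 52 without 1 array. Members higher than at 24 h numbered 24 with no filter and from 13 to 32 without 1 array. Members lower at 24 h than control numbered 1 with the 60th percentile filter, 2 with the replicate block and from 0 to 1 without 1 array. The fits without 1 array have fewer arrays, and a lone array is assumed to vary like the other times.

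With the replicate number as a block, 59 members were higher at 7 d than control and 51 higher than at 24 h, while the counts over all tested probe sets moved from 1082 to 1584 and from 637 to 1389. Arrays of one number deviated together across probe sets (correlations from 0.16 to 0.36 between times), but with 2 numbers the labels give no pairing. Of 272 recomputed 7 d differences of named members, over the 8 settings that can change them, 0 reversed, the lowest was 0.41 and 271 moved by less than the spread between arrays. The exception was AT1G09740 with log2(signal + 16), at 1.1. The planned comparison of promoter motifs was not run.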
